A study of Mus musculus with 11 samples.

Results

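The 1113 cells described here are the epithelial cells of mouse colonic mucosa that the study's own cell annotation names Epithelium-Crypt-1. They were taken from that annotation by name, out of 55603 annotated cells in 11 libraries and out of 12457 epithelial cells in all. Their nearest counterpart by name, the 2348 cells annotated Epithelium-Crypt-2, is used for comparison throughout. The study followed the colon through chemical injury and through a genetic colitis by single-cell RNA sequencing (10x Genomics Chromium, where each captured RNA molecule is counted once by its unique molecular identifier, UMI).

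Injured WT mice drank 3% dextran sulfate sodium (DSS), a detergent-like polymer that damages the colonic lining, for 6 days from the age of 8 weeks. They were dissected at 9 times after first exposure, on days 6, 7, 9 and 11, on days 12, 16 and 18, and on days 19 and 23, with 1 library per day. Il10-/- mice are without IL-10, a cytokine that restrains inflammation, and develop colitis with no DSS. They were kept for about 8 months and dissected at about 10 months of age, 1 library. Uninjured WT mice were dissected at about 2 months of age, 1 library. Every library was made from the pooled mucosa of 3 to 8 mice, stripped of muscle, digested enzymatically and cleared of dying cells with annexin V. The days 7, 11 and 18 carry the batch label C, the batch that was processed directly after isolation. The sample labels of the other 8 libraries name no batch, and they are called libraries with no batch label below. The study's cell table lists these 8 as batch A, as frozen and as pools of 8 mice. It lists the batch C libraries as fresh and as pools of 3. No group has a second library, so values of single groups carry counting error only and the comparison of Il10-/- with uninjured mice cannot tell genotype, age and pool apart.

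The colonic epithelium is renewed from crypts. Stem cells at the crypt base, kept by Wnt signals, give rise to dividing progenitors that fill the lower crypt, leave the cell cycle as they move up and become absorptive colonocytes or mucus-secreting goblet cells. After DSS has removed surface epithelium, it is the dividing crypt compartment that refills it, and in repair it can take on a state marked by genes such as Ly6a (the surface antigen Sca-1).

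Genes of the G2 and mitotic phases are known to share promoter elements, CCAAT boxes bound by NF-Y and the CHR element TTTGAA with its variant form TTTAAA, through which they are switched on together late in the cell cycle. Because 36 of 36 such genes stood higher in Crypt-1 cells (below), the 250 bases upstream of the start site of 4 of them are shown, from RefSeq on GRCm38.p6, each read 5′ to 3′ on the gene's strand. Capitals mark these motifs on either strand. A CCAAT box on the other strand reads ATTGG, and a TTTGAA on the other strand reads TTCAAA. The 4 genes are Mki67 (the proliferation antigen Ki-67; chr7:135716380-135716629, minus strand), Top2a (topoisomerase II alpha, which untangles chromosomes before they part; chr11:99024190-99024439, minus strand), Cdk1 (the kinase that starts mitosis; chr10:69352913-69353162, minus strand) and Plk1 (a kinase of spindle assembly; chr7:122159185-122159434, plus strand).
Mki67: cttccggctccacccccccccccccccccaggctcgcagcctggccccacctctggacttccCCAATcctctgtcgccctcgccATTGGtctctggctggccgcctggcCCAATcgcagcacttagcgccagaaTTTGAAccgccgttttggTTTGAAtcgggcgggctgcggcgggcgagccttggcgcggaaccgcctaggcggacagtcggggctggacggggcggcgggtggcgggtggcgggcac
Top2a: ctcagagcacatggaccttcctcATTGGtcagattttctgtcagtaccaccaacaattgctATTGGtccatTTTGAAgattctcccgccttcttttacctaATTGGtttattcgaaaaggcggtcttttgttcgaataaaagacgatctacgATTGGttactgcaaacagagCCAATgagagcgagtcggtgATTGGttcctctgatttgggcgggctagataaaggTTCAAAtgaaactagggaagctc
Cdk1: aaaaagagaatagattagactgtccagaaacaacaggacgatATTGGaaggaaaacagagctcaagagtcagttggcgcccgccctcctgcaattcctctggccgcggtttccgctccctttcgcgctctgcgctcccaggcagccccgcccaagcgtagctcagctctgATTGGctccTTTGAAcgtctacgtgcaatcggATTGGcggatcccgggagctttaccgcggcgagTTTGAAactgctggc
Plk1: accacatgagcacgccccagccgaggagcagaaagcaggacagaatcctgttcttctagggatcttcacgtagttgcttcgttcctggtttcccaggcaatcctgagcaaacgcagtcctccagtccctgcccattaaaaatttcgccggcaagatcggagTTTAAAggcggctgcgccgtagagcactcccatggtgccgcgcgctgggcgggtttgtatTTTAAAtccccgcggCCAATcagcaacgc

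Mki67 held 3 CCAAT and 2 TTTGAA matches, Top2a 6 and 2, Cdk1 3 and 2, and Plk1 held 1 CCAAT and 2 TTTAAA matches. Of the 36 G2 and mitosis genes, 30 had a promoter in the RefSeq table. A CCAAT box was present in 24 of these (80.0%), either form of the CHR element in 16 (53.3%), and both kinds of motif in 15 (50%). Over all 27025 genes with a promoter, at the same length, the shares were 37.5%, 28.1% and 10.1%. Over the 8964 of them found in at least 5% of the cells of either type they were 40.7%, 20.8% and 7.94%. Among 29 DNA replication genes with a promoter the shares were 58.6%, 24.1% and 13.8%. A match is a description of these letters and not evidence of a bound site.

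The cells were unevenly spread over the libraries. Day 11 gave 440 Crypt-1 cells and day 18 gave 404, together 75.8% of all, while the other DSS days gave 16 to 49, the Il10-/- library 28 and the uninjured library 16. Crypt-1 cells were deeper than Crypt-2 cells, with a median of 24253 UMIs against 12169 and a median mitochondrial share of 9.23% against 13.7%. Summed counts per library over Crypt-1 cells ran from 209585 (uninjured) to 19332556 (day 11). The uninjured and day 6 sums rested on cells with high mitochondrial shares, 27.8% and 21.0% at the median, against 7.51% to 16.2% elsewhere. Both libraries, with 16 cells each, were left out of the gene tests over days and of the comparison with Crypt-2, while the test of shares over days keeps day 6. A barcode shared with another library was carried by 11 Crypt-1 cells, and in 0 cases was the partner a Crypt-1 cell.

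The annotation was built from the same cells' expression, so the marker levels below describe the name and do not test it. At an equal depth of 5000 UMIs per cell, which 1045 Crypt-1 and 1805 Crypt-2 cells reached, Mki67 was detected in 61.8% of Crypt-1 and 5.82% of Crypt-2 cells. In the colonocytes annotated Car4/Ly6g, which have left the cycle, the share was 1.78% (2417 cells, median 7270 UMIs before thinning). Without thinning the shares were 82.1% of Crypt-1 and 12.0% of Crypt-2 cells. Top2a gave 44.2%, against 2.71% in Crypt-2 cells and 1.90% in the colonocytes. The epithelial adhesion molecule Epcam was found in 99.5% of Crypt-1 and 99.8% of Crypt-2 cells, against 17.6% of macrophages (median 3660 UMIs). All 10 crypt stem markers, all 8 cycling markers and all 8 columnar markers on the lists had counts in Crypt-1 cells. So did all T cell, B cell and neutrophil markers on the lists, so having counts does not tell types apart. Among markers of other tissues, summed T cell, B cell, endothelial and glial markers reached at most 14.4 CPM (a gene's counts per 1000000 counts of the sum) in any Crypt-1 sum. Other cells' transcripts reached higher levels, with up to 11486 CPM of neutrophil, 4139 CPM of plasma cell, 340 CPM of fibroblast and 193 CPM of monocyte and macrophage markers in a Crypt-1 sum, against up to 110653, 200368, 20002 and 3241 CPM in non-epithelial cells. Their part in the results was not tested.

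Crypt-1 cells made up 1.25% to 23.8% of the epithelial cells of a DSS library. The shares were 5.08% on day 6 (95% exact binomial interval 2.93 to 8.12), 1.25% on day 7, 11.6% on day 9, 23.8% on day 11 (21.9 to 25.8), 6.88% on day 12, 5.74% on day 16, 9.22% on day 18 (8.38 to 10.1), 6.53% on day 19 and at last 6.14% on day 23. The share was 3.66% in Il10-/- mice (2.45 to 5.25) and 2.18% in uninjured mice (1.25 to 3.52). Day 11 stood highest and day 7 lowest, both in batch C, and all DSS days but day 7 lay above the uninjured library. As a share of all cells of the library that order did not hold, with 0.480% in Il10-/- mice and 0.291% to 4.91% on the DSS days, against 0.879% in uninjured mice, and days 6, 7, 12, 16 and 19 lay below the uninjured library. Intervals cover counting error only, and the shares also depend on how many other epithelial cells survived digestion and storage, which was not tested.

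The shares had no straight trend over days 6 to 23 that passed a test. Spearman's rho was 0.2 (exact permutation p = 0.613) and Pearson's r -0.046 (exact permutation p = 0.922, two-sided, n = 9 libraries), and the sign of each changed in some settings. With 3 denominators examined the Benjamini-Hochberg adjusted p-values were 0.613 and 0.922. Without day 19 and day 23, the days farthest from the median day, r was 0.146. In the 6 DSS libraries with no batch label rho was 0.029 (exact permutation p = 1). Set against Crypt-2 alone, Crypt-1 cells were 51% of the pair on day 11 and 37.7% on day 18, 10.8% to 26.5% on the other DSS days, 15.2% in Il10-/- mice and 8.65% in uninjured mice.

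**Figure D1:**
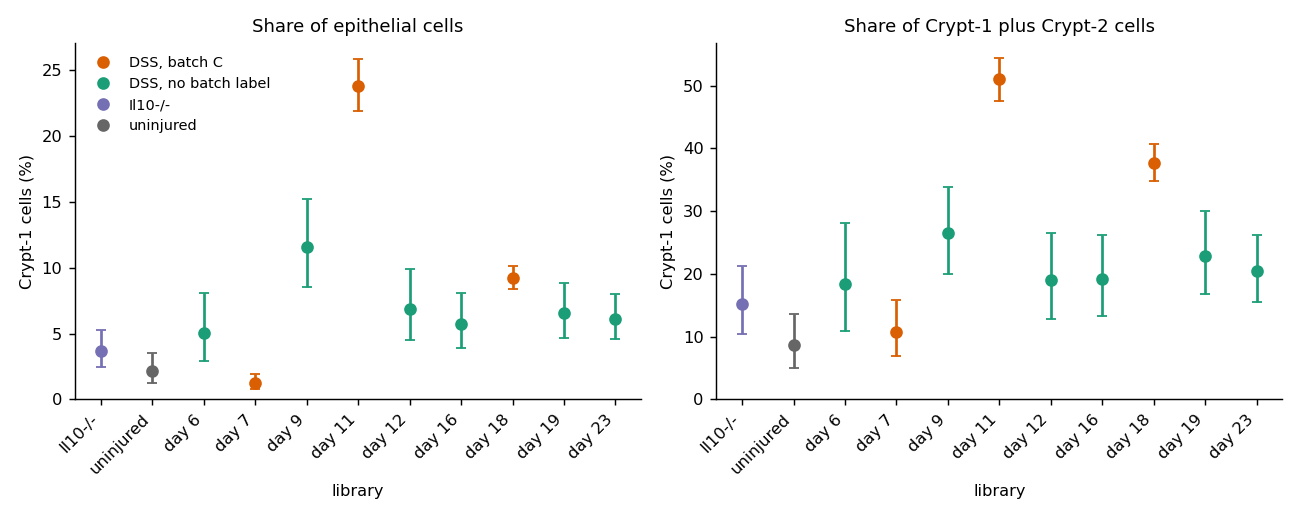
Share of Crypt-1 cells in each library, as percent of epithelial cells (left) and of Crypt-1 plus Crypt-2 cells (right), with exact 95% binomial intervals. Day 11 reached 23.8% and 51%, against 2.18% and 8.65% in the uninjured library.

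Compared with Crypt-2 cells of the same library, Crypt-1 cells stood highest for genes of mitosis, followed by DNA replication, crypt stem cell and ribosome biogenesis genes, and lowest for genes of mature colonocytes. The comparison used the 9 libraries with at least 20 cells of both types. For each of 11310 genes found in at least 5% of the cells of either type, a log2 ratio of CPM was taken per library (0.5 counts added) and the median over libraries is given. A gene was counted when that median was at least 4-fold and the direction was the same in all 9 libraries, which held for 530 genes higher in Crypt-1 (4.69%) and for 155 lower (1.37%). With no limit on size, 3011 of the 11310 genes were higher and 1231 lower in all 9 libraries, the background for list counts by direction alone. The median over all genes was 0.29. The annotation was built from the same cells' expression, so these are descriptions with no test.

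Of 36 G2 and mitosis genes, 36 were higher in all 9 libraries and 36 passed 4-fold, with a median log2 ratio of 4.61. Mki67 had 121, 367, 136, 277, 127, 124, 492, 123 and 149 CPM in Crypt-1 cells over days 6 to 23, 151 CPM in Il10-/- and 216 CPM in uninjured mice, against 0.78 to 21.6 CPM in Crypt-2 cells. The lowest Crypt-1 sum was thus above the highest Crypt-2 sum, and the batch C days 7, 11 and 18 were the highest. Top2a had 141 to 322 CPM in Crypt-1 cells, against 1.56 to 12.9 CPM in Crypt-2 cells. The highest ratio belonged to Pbk (ENSMUSG00000022033, on chromosome 14 at 65805837 to 65817822 of mm10), a mitotic kinase, with 42.8 to 76.4 CPM in Crypt-1 cells over all 11 libraries, against 0 to 2.68 CPM in Crypt-2 cells. Its median log2 ratio was 6.92 ± 1.34 (SD over 9 libraries), a value that depends on the added count because Crypt-2 sums were near 0, and with all cells thinned to 1000 UMIs it was 3.65.

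The 12 highest ratios were Pbk, Esco2, Bub1, Nusap1, Plk1, Cdk1, Hmmr, Knl1, Kif11, Ascl2, Ccnf and Ncapg, in that order, with medians between 5.13 and 6.92. With cells thinned to 1000 UMIs, Bub1, Ascl2 and Ccnf were at 1.91 each and so under 4-fold. All but Ascl2 are cell cycle genes, most of them of chromosome cohesion and condensation, spindle assembly or mitotic entry. Bub1 and Knl1 are kinetochore parts of the spindle checkpoint, Kif11 is the motor that separates the spindle poles, Hmmr and Nusap1 bind the spindle, Esco2 acetylates cohesin, Ncapg is a condensin subunit and Ccnf is cyclin F. Cdk1 itself was at 57.6 to 113 CPM in Crypt-1 cells, against 0.75 to 6.73 CPM in Crypt-2 cells (log2 ratio 5.32 ± 0.90). Ascl2 is a Wnt-driven transcription factor of stem cell identity. Ascl2 had 4.86 to 24.4 CPM in Crypt-1 cells of DSS mice, a value inside that range in Il10-/- and 28.8 CPM in uninjured mice, against 0 to 0.71 CPM in Crypt-2 cells, with no overlap.

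DNA replication genes were higher by less than mitotic ones. All 34 S phase genes were higher in all 9 libraries and 32 passed 4-fold, with a median of 3.33. Pclaf, a PCNA-binding replication factor, had a log2 ratio of 4.95 ± 0.85, Uhrf1 (maintenance of DNA methylation at the fork) 4.74, Hells 4.55, the helicase subunit Mcm3 4.13 and Pcna itself 1.69. Summed over the list, S phase genes were at 1255 to 2001 CPM in DSS Crypt-1 sums, 1569 CPM in Il10-/- and 1247 CPM in uninjured mice, against 157 to 253 CPM in Crypt-2 cells. The G2 and mitosis list summed to 2276 to 5926, 2715 and 3531 CPM in Crypt-1 cells of the same groups, against 159 to 411 CPM in Crypt-2 cells.

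Growth genes were higher too. All 23 ribosome biogenesis and MYC target genes were higher in all 9 libraries and 12 passed 4-fold (median 2.07). Npm1, the nucleolar protein nucleophosmin, had 606 to 1453 CPM in DSS Crypt-1 cells, 800 in Il10-/- and 528 in uninjured mice, against 161 to 447 CPM in Crypt-2 cells. Nucleolin (Ncl) had a log2 ratio of 2.21, Nop56 (a box C/D snoRNP protein) 2.69, Srm (spermidine synthase) 2.67 and Cad (pyrimidine synthesis) 2.81. These groups did not overlap for Npm1.

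Stem cell and Wnt target genes were higher by uneven amounts. Of the 10 crypt stem markers 9 were detected, 9 were higher in all 9 libraries and 7 passed 4-fold (median 2.98). Slc12a2, an ion cotransporter of the crypt base, was the most abundant, with 118 to 450 CPM in DSS Crypt-1 cells, 296 CPM in Il10-/- and 461 CPM in uninjured mice, against 20.1 to 67.4 CPM in Crypt-2 cells. Smoc2, a secreted matrix protein of stem cells, was found in 20.7% of thinned Crypt-1 cells, against 0.66% in Crypt-2 cells and 0.50% in Car4/Ly6g colonocytes. The stem cell receptor Lgr5 was found in 4.02%, against 0.06% and 0.08%. Lgr5 was at 0 to 14.3 CPM in DSS Crypt-1 cells, with 0 counts on days 6 and 12, 10.9 CPM in Il10-/- and 19.2 CPM in uninjured mice.

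In the wider Wnt target and stem list, 14 of 18 detected genes were higher in all 9 libraries and 7 passed 4-fold (median 1.61). Axin2, a feedback inhibitor that reads out Wnt signalling, had 8.22 to 38.9 CPM in DSS Crypt-1 cells, 30.9 CPM in Il10-/- and 38.4 CPM in uninjured mice, against 0 to 5.11 CPM in Crypt-2 cells. Cdca7, a MYC target, had a log2 ratio of 3.29 ± 0.42. Sox9, a crypt transcription factor, was only 0.73 and Ccnd2, cyclin D2, 0.71 with 7 of 9 libraries in that direction.

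Absorptive genes ran the other way. Of 29 detected surface colonocyte genes 24 were lower in all 9 libraries and 16 passed 4-fold (median -2.25). Tgm3, a transglutaminase of the upper crypt and surface, gave the lowest ratio. Its Crypt-1 values were 4.49, 63.2, 3.58, 10.4, 2.44, 2.04, 12.8, 1.37 and 1.22 CPM over days 6 to 23, 10.9 CPM in Il10-/- and 28.8 CPM in uninjured mice, against 56.3 to 678 CPM in Crypt-2 cells (log2 ratio -4.94 ± 0.87). Day 7 alone exceeded the lowest Crypt-2 value. Krt20, a keratin of differentiated colonocytes, was found in 9.38% of Crypt-1, 53.9% of Crypt-2 and 95.6% of Car4/Ly6g colonocytes at equal depth. Slc26a3, the chloride-bicarbonate exchanger, had 6.76 to 29.9 CPM in DSS Crypt-1 cells, 7.27 CPM in Il10-/- and 76.8 CPM in uninjured mice, against 108 to 452 CPM in Crypt-2 cells.

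The remaining lowest ratios were those of Cyp2c55 (a cytochrome P450 of arachidonic acid), Atp12a (the colonic proton pump), Slc9a3 (the sodium-proton exchanger NHE3), Lhfpl2, Ifit1bl1, Slc37a2, Slc15a1 (the peptide transporter PEPT1), Krt20, Dpep1 (a dipeptidase), Sectm1b and Csta1, between -4.74 and -3.71. Thinning all cells to 1000 UMIs left 5 of them under 4-fold, Slc9a3 at -0.09, Slc15a1 at -0.43, Csta1 at -0.89, Lhfpl2 at -1.26 and Slc37a2 at -1.28. General epithelial genes differed little by comparison. Of 8 columnar markers 7 were lower in all 9 libraries but 0 passed 4-fold (median -0.60), and Epcam had 1479 to 2398 CPM in DSS Crypt-1 cells, 1278 in Il10-/- and 1377 in uninjured mice, against 1877 to 3254 CPM in Crypt-2 cells.

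Other gene groups were split. Of 16 junction genes 9 were lower in all 9 libraries, while Cldn2, the pore-forming claudin of the crypt, passed 4-fold in the other direction with 38.9 to 137 CPM in DSS Crypt-1 cells, 69.1 CPM in Il10-/- and 67.2 CPM in uninjured mice, against 0.81 to 17.0 CPM in Crypt-2 cells. Nox1, the NADPH oxidase of crypt cells, had a log2 ratio of 3.99 ± 0.97 and Etv4, an ETS factor downstream of growth factor signalling, 3.45 ± 1.11. In all, 10 of 21 glycolysis and hypoxia genes and 10 of 21 oxidative phosphorylation genes were lower in all 9 libraries, with medians of -0.60 and -0.20. The cell cycle brakes Cdkn1a (p21) and Klf4 were at -1.81 and -1.87, while Cdkn2c (p18) was at 3.00. Among 16 Notch and lineage genes, 7 were higher and 3 lower in all 9 libraries, and 1 passed 4-fold. Over all 11310 genes, 3011 were higher and 1231 lower in all 9 libraries. The Notch ligand Dll4 was at 2.44 and the secretory master factor Atoh1 at 1.64.

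**Figure D2:**
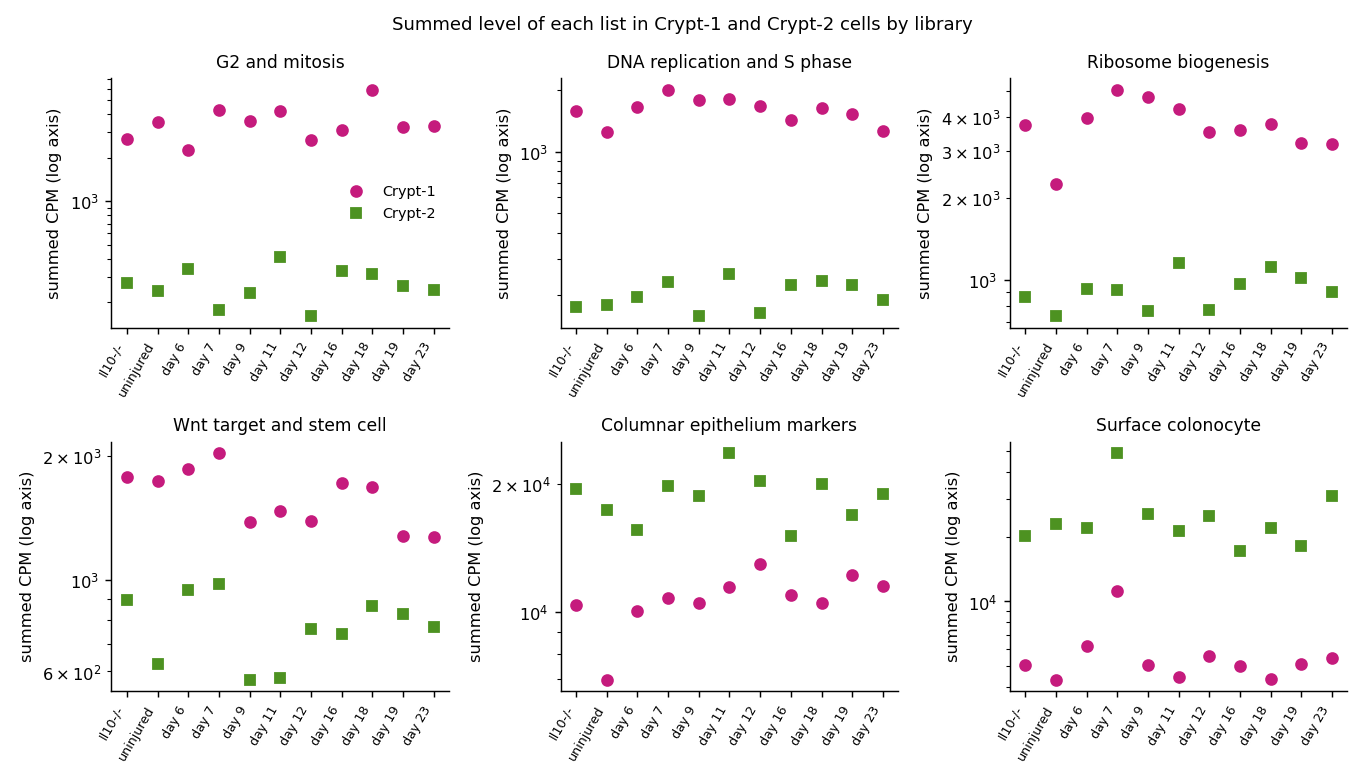
Summed CPM of 6 gene lists in every library (log axis), Crypt-1 as circles and Crypt-2 as squares. G2 and mitosis genes were at 2276 to 5926 CPM in Crypt-1 sums of DSS mice and at 159 to 411 CPM in Crypt-2 sums, while surface colonocyte genes were lower in Crypt-1 in every library.

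The Crypt-1 cells were not all alike in cycle phase. At 5000 UMIs per cell the G2 and mitosis list took a median of 18 UMIs, with the 10th and 90th percentiles at 2 and 47 and a highest value of 92, against a median of 1 UMI in Crypt-2 cells and 0 in Car4/Ly6g colonocytes. The S phase list took 6 UMIs at the median, against 1 in Crypt-2 cells. With a limit of 10 UMIs on each list, 460 of 1045 cells passed on G2 and mitosis alone (44.0%, exact binomial interval 41.0 to 47.1), 245 on both (23.4%), 78 on S phase alone (7.46%) and 262 on neither (25.1%, 22.5 to 27.8). These intervals pool the cells of all libraries and do not cover the spread between libraries. By library the share on G2 and mitosis alone ran from 21.7% on day 12 to 66.7% of the 9 uninjured cells. In Crypt-2 cells 98.4% and in the colonocytes 99.9% passed on neither. These classes are ranges cut from a continuous score, and 209 cells lay within 2 UMIs of the S phase limit and 117 of the other.

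The share below both limits was 33.3% on day 6 (15 cells), 9.09% on day 7, 29.3% on day 9, 25.5% on day 11, 34.8% on day 12, 54.2% on day 16, 18.1% on day 18, then 44.1% on day 19 and lastly 46.7% on day 23. It was 28.0% in the Il10-/- and 22.2% in the uninjured library, the last from 9 cells. The 3 batch C days held 3 of the 4 lowest values, with the uninjured library the remaining one. Median UMIs per Crypt-1 cell before thinning were also higher on those days, 26554 to 64725 against 9725 to 16809 in the other libraries, and their part in the shares was not tested.

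Secretory transcripts divided the cells as well. Goblet markers took at least 10 UMIs in 22.3% of Crypt-1 cells at equal depth, against 9.70% of Crypt-2 cells and 9.76% of Car4/Ly6g colonocytes (median depth 7270 UMIs). The source of these transcripts in the colonocytes was not tested. The median was 5 UMIs per Crypt-1 cell and the highest 261. The pooled share rests mostly on days 11 and 18, with 24.3% and 27.3%, against 13.5% and 13.7% of Crypt-2 cells. On days 7, 12 and 19 Crypt-1 cells had the lower share, 0%, 4.35% and 5.88%, against 3.97%, 6.10% and 6.42% of Crypt-2 cells. In the other libraries they had the higher one, with 55.6% of the 9 uninjured cells. In summed counts the goblet markers had a median log2 ratio to Crypt-2 cells of -0.53. Muc2, the gel-forming mucin of goblet cells, was detected in 22.8% of Crypt-1, 18.4% of Crypt-2 and 24.0% of Car4/Ly6g colonocytes, so its detection by itself did not set Crypt-1 cells apart. Reg4, a secretory lectin, was detected in 12.2% of Crypt-1 cells, against 3.99% of Crypt-2 cells and 3.02% of the colonocytes.

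**Figure D3:**
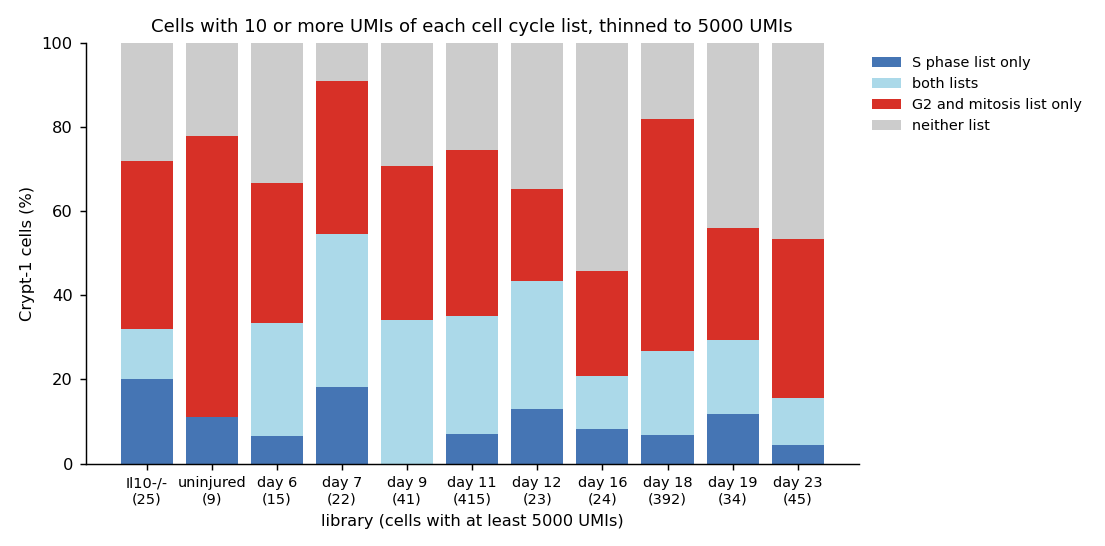
Percent of Crypt-1 cells in each library with at least 10 UMIs on the G2 and mitosis list, the S phase list, both or neither, all cells thinned to 5000 UMIs, with cell numbers beside the library names. The share below both limits ranged from 9.09% on day 7 to 54.2% on day 16.

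How Crypt-1 cells changed over the days after DSS was tested on counts summed per library in the 8 DSS libraries from day 7 to day 23, with edgeR's quasi-likelihood test, a slope per 10 days and the batch label as a term. Of 8281 genes, 57 rose (0.688%) and 59 fell (0.712%) at a Benjamini-Hochberg adjusted p under 0.05, 1.4% together, and 1306 had an unadjusted p under 0.05. The median slope of all genes was 0.02 (log2 per 10 days). The cell cycle genes that set these cells apart showed almost no called change with day.

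Sult1a1 (ENSMUSG00000030711, on chromosome 7 at 126672865 to 126676432), a sulfotransferase that conjugates phenols, had the smallest p. It had 21.5, 15.5, 55.0, 29.2, 57.0, 130, 49.3 and 153 CPM on days 7, 9, 11, 12, 16, 18, 19 and 23, after 108 CPM on day 6, which was not fitted. Days 18 and 23 were highest and days 7 and 9 lowest. Sult1a1 rose by 2.18 ± 0.20 on the log2 scale per 10 days (SE, adjusted p = 7.98e-06 by edgeR's quasi-likelihood test). The call held without any 1 of the 8 libraries, but with the 16-cell day 6 library added the slope was 1.42 (adjusted p = 0.317).

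Fabp2, the fatty acid binding protein of absorptive cells, had 21.5, 71.6, 17.5, 124, 122, 34.9, 179 and 363 CPM on days 7 to 23, with the batch C days 7, 11 and 18 the 3 lowest. Its slope within the fit with batch was 1.34 ± 0.20 (adjusted p = 0.0036).

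Other genes with large rises were Ces1f, a carboxylesterase (4.31 ± 0.69, adjusted p = 0.0036), Otc, a urea cycle enzyme that makes citrulline in the gut (2.77 ± 0.56, adjusted p = 0.0181), Ceacam10 (1.54 ± 0.28, adjusted p = 0.0202), Cdo1, cysteine dioxygenase (1.5 ± 0.33, adjusted p = 0.047), Ank3, ankyrin G (1.5 ± 0.35, adjusted p = 0.0396), and Gstm3, a glutathione transferase (1.41 ± 0.31, adjusted p = 0.0237). Ces1f had 0.69, 0, 0.62, 2.44, 4.07, 8.26, 13.7 and 25.7 CPM on days 7 to 23, in that order, but 35.9 CPM on the unfitted day 6, and with that library added its slope was 2.10 (adjusted p = 0.402). Ceacam10 had 26.4, 29.9, 38.6, 29.2, 73.3, 135, 45.2 and 75.8 CPM, with the 4 days from day 16 on above the 4 before. The call of Ces1f was lost without day 18 (adjusted p = 0.175), that of Otc without day 9 (adjusted p = 0.092), and that of Ceacam10 without day 12, 18 or 23 (slope 0.996 without day 18, adjusted p = 0.148). Without day 23 neither Ces1f nor Otc passed the filter on low counts, nor did Ces1f without day 19 or Otc without day 18, so these fits gave no value. Those of Gstm3, Cdo1 and Ank3 were each lost without any of at least 3 libraries, days 12, 18 and 23 among them.

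Among falling genes, Krt36, a keratin, had 43.8, 58.5, 24.6, 19.5, 20.4, 15.3, 5.48 and 6.11 CPM on days 7 to 23. Days 7 and 9 were the highest and days 19 and 23 the lowest, and it fell by 1.81 ± 0.28 (adjusted p = 0.0035). Slc51b, a subunit of the basolateral bile acid transporter, fell by 2.56 ± 0.44 (adjusted p = 0.0051), with 24.3 and 26.3 CPM on days 7 and 9 and 1.22 CPM on day 23. Prps1, which makes the ribose donor of nucleotides, fell by 1.46 ± 0.26 (adjusted p = 0.0074), with 36.1 and 39.4 CPM on days 7 and 9 and 9.59 and 12.2 CPM on days 19 and 23. Krt36 and Prps1 kept their call without any 1 library, and Slc51b in the 6 such fits that tested it, since without day 7 or day 9 it did not pass the filter on low counts. Prps1 lost its call with day 6 added (adjusted p = 0.0627).

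Gprc5a, a retinoic acid-induced receptor, had 142, 131, 65.5, 195, 106, 35.6, 58.9 and 50.1 CPM on days 7 to 23, with the last 3 days the lowest (-1.49 ± 0.22, adjusted p = 0.0044). Its adjusted p was 0.0737 without day 18 and 0.0553 without day 23. Slc7a5, the large neutral amino acid transporter, had 25.7, 47.8, 14.5, 39.0, 26.5, 9.93, 19.2 and 8.55 CPM (-1.38 ± 0.24, adjusted p = 0.0052, and 0.0532 without day 23). Epha2, an ephrin receptor, had 36.8, 57.3, 19.7, 70.6, 42.8, 7.43, 30.1 and 29.3 CPM (-1.38 ± 0.26, adjusted p = 0.0103, and 0.148 without day 18). Within Slc7a5 and Epha2 the batch C days ran below their neighbours in time from day 11 on.

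The other 2 of the 8 largest falls were Tac1, the precursor of substance P (-2.59 ± 0.46, adjusted p = 0.032), and Sprr2b, a cornified envelope protein (-2.51 ± 0.62, adjusted p = 0.047). Each lost its call without any of at least 4 libraries, days 12, 16, 18 and 19 among them. Tac1 had 132 CPM on day 7 and 6.85 to 27.9 CPM on the other fitted days.

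Cell cycle lists stayed near the background of calls. Of 36 G2 and mitosis genes 0 were called, with a median slope of 0.25 and 32 of 36 slopes above 0, and edgeR gave Mki67 a slope of 0.24 (adjusted p = 0.483) and Top2a -0.01 (adjusted p = 0.990). Of 34 S phase genes 1 fell, Rrm2, the small subunit of ribonucleotide reductase, with 64.6, 103, 59.4, 56.0, 55.0, 32.9, 57.5 and 37.9 CPM on days 7 to 23 (-0.90 ± 0.18, adjusted p = 0.0158). The S phase list had a median slope of -0.31, with 7 of 34 above 0. Of 23 ribosome biogenesis genes 2 fell, the RNA helicase Ddx21 (-0.64 ± 0.15, adjusted p = 0.0448) and the polyamine enzyme Odc1 (-0.68 ± 0.14, adjusted p = 0.0142), with a median of -0.32 over the list and 3 slopes above 0. These list medians are descriptions with no test of their own.

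Of 24 surface colonocyte genes tested 2 rose, Fabp2 among them, and 2 fell, Mall and Emp1, with a list median of -0.29 and 6 slopes above 0. Of 17 Wnt target and stem genes and 7 MHC class II genes 0 were called by edgeR; Lgr5 had a slope of 1.39 (adjusted p = 0.254). Of 15 goblet and secretory genes 1 rose, Fcgbp, a mucus-binding protein, with a list median of 1.89 and 12 of 15 slopes above 0, but the mean level of Fcgbp in Crypt-1 cells was below that in non-epithelial cells of the same libraries. The same was so for 13 of the 57 rising and 22 of the 59 falling genes, among them the neutrophil granule gene Ngp. Beside these trends, neutrophil markers summed to 5347, 8761, 11486, 2046, 265, 1277, 221 and 167 CPM and plasma cell markers to 24.3, 359, 24.8, 745, 4139, 3817, 2844 and 3748 CPM in the Crypt-1 sums of days 7 to 23. In the non-epithelial cells they reached 110653 and 200368 CPM, and their part in the trends was not tested.

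**Figure D4:**
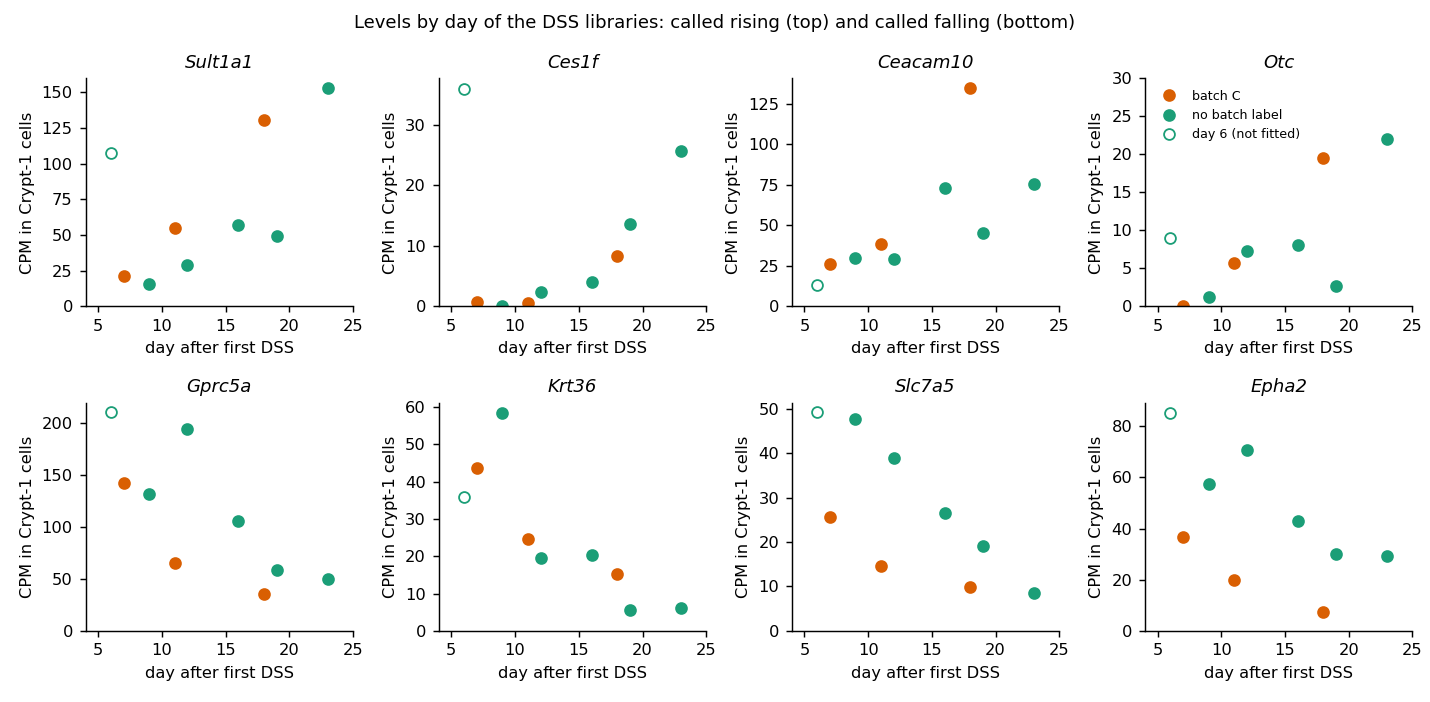
CPM of 4 rising (top) and 4 falling genes (bottom) in the Crypt-1 sum of each DSS library against day after first DSS, with batch C in orange, libraries with no batch label in green and the unfitted day 6 as an open circle. Sult1a1 had 15.5 CPM on day 9 and 153 CPM on day 23, and Krt36 58.5 and 6.11 CPM.

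The count of calls depended on the libraries and on the batch term. With the 5 libraries that carry no batch label alone, 131 genes were called, of which 52 were among the 116. Adding day 6 gave 34 calls, 32 of them among the 116, and dropping the batch term gave 2. Leaving out day 9, 18 or 23 gave 58, 35 and 32 calls, and leaving out day 7 or 11 gave 242 and 281. The 3 batch C libraries by themselves were not fitted.

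Crypt-2 cells of the same libraries had 18 rising (0.185%) and 82 falling genes (0.843%) among 9726, and 13 of the 115 Crypt-1 genes that could be tested there were called in both. Whether a slope differed between the types was tested with an interaction of type and day and the library as a block, since both sums come from the same pool. Of 10034 genes, 6 had a higher slope in Crypt-1 (0.0598%) and 1 a lower one (0.00997%), together 0.0698%, and 819 had an unadjusted p under 0.05.

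The clearest was Clca3b (ENSMUSG00000037033, on chromosome 3 at 144822623 to 144849357), a calcium-activated chloride channel regulator. It had 411, 239, 411, 273, 271, 509, 358 and 464 CPM in Crypt-1 cells on days 7 to 23, against 376, 292, 379, 263, 138, 215, 188 and 135 CPM in Crypt-2 cells. From day 16 on every Crypt-1 value was above its Crypt-2 value, while before that they lay close. The slope difference was 1.38 ± 0.16 (edgeR adjusted p = 0.00093), with slopes of 0.55 in Crypt-1 and -0.86 in Crypt-2 cells. It held without any 1 library and was 0.86 with day 6 added (adjusted p = 0.631).

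F3, tissue factor, the trigger of coagulation, had 34.7, 119, 83.9, 114, 147, 58.7, 114 and 199 CPM in Crypt-1 cells, against 55.8, 153, 132, 89.9, 123, 46.0, 85.0 and 56.2 CPM in Crypt-2 cells. Crypt-1 was below Crypt-2 on days 7, 9 and 11 and above it from day 12 on (1.30 ± 0.21, adjusted p = 0.0136). The call was lost without day 9, 18 or 23, with adjusted p between 0.103 and 0.14, and with day 6 added the difference was 0.90 (adjusted p = 0.490). Sult1a1 had the steeper rise in Crypt-1, with a difference of 1.35 ± 0.22 (adjusted p = 0.0136), against a slope of 0.88 in Crypt-2 cells, and lost that call without day 9, 18 or 23. With day 6 added its difference was 0.70 (adjusted p = 0.817). Fitted on the 5 libraries outside batch C, F3 differed by 1.38 and Sult1a1 by 1.45 (adjusted p = 0.086 and 0.0881).

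Ccnd2, the cyclin D2 that carries growth signals into the cycle, was the 1 gene with the lower slope in Crypt-1 (-1.06 ± 0.16, adjusted p = 0.0105). It had 1078, 347, 342, 421, 521, 380, 264 and 224 CPM in Crypt-1 cells on days 7 to 23, against 533, 128, 210, 251, 262, 450, 246 and 259 CPM in Crypt-2 cells. Crypt-1 stood above Crypt-2 up to day 16, while on days 18 and 23 it stood below. The adjusted p was 0.126 without day 9 and 0.162 without day 18, and 0.0889 in the libraries outside batch C.

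Against the uninjured library, Crypt-1 cells of Il10-/- mice had higher levels of antigen presentation genes. The Crypt-1 sums of Il10-/- and DSS mice had higher levels of antimicrobial genes. They also held neutrophil markers, at 453 and 167 to 11486 CPM, against 0 CPM in the uninjured sum. These are single libraries, the uninjured one with 16 cells, so ratios of CPM are given with intervals for counting error and no test. Of 3643 genes that reached 20 counts in either library, 130 were at least 4-fold higher in Il10-/- (3.57%) and 21 at least 4-fold lower (0.576%), with a median ratio of 1.19. For the median of the 9 DSS libraries the numbers were 130 (2.82%) and 24 (0.522%) of 4602, with a median of 1.18. A gene with almost no uninjured counts passed the limit of 20 counts only through libraries where it was high, and so had to be higher there. Counts over the members of a list that passed are therefore given as a description, beside the summed level of the whole list, which uses no such limit.

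Cd74, the invariant chain that escorts MHC class II, was the most abundant of the first group. It had 2959 CPM in Il10-/- Crypt-1 cells and 265, 75.0, 160, 97.5, 175, 570, 167, 674 and 503 CPM on the DSS days, against 9.59 CPM in uninjured ones. The Il10-/- value was above all others, and all DSS days were above the uninjured library. The Il10-/- ratio was 308 (85.2 to 2549, from 1627 against 2 counts). The 8 MHC class II genes summed to 5799 CPM in Il10-/- and 228 to 1273 CPM in DSS Crypt-1 cells, against 106 CPM in uninjured ones. All 8 reached 20 counts and 7 were at least 4-fold higher in Il10-/-, including H2-Aa (79.4), H2-Ab1 (66.0) and H2-Eb1 (62.2). In DSS mice 4 of the 5 that passed the limit were.

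Cd74 was spread over the Il10-/- cells, with UMIs in 27 of 28 and 13.1% of the total in the top cell. At equal depth it was detected in 100% of Il10-/- Crypt-1 cells, 98.3% of Crypt-2 cells and 98.7% of macrophages, against 11.1% of uninjured Crypt-1 cells, 16.3% of Crypt-2 cells and 100% of macrophages. Summed MHC class II transcripts in Crypt-2 cells were 6403 CPM in Il10-/- and 377 CPM in uninjured mice, so the difference was not particular to Crypt-1. In non-epithelial cells the sums were 19328 CPM in Il10-/- and 5863 CPM in uninjured mice, and the part of free RNA in the epithelial values was not tested.

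Of 28 interferon-driven genes 27 were in the deposited counts. They summed to 2370 CPM in Il10-/- and 602 to 2499 CPM in DSS Crypt-1 cells, against 211 CPM in uninjured ones. Of the 11 that passed the limit 9 were at least 4-fold higher in Il10-/- mice, and 5 of 16 in DSS mice. Psmb8, an immunoproteasome subunit, had 495 CPM in Il10-/- and 60.3 to 241 CPM in DSS Crypt-1 cells, against 19.2 CPM in uninjured ones (Il10-/- ratio 25.8, 9.95 to 95.3). Tap1, which pumps peptides to MHC class I, had a ratio of 26.9. In Crypt-2 cells the list summed to 2066 CPM in Il10-/- and 657 to 1704 CPM in DSS mice, against 260 CPM in uninjured mice. In non-epithelial cells the sums were 4611, 3077 to 7108 and 2173 CPM, in the same order.

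The 21 antimicrobial and acute phase genes summed to 4824 CPM in Il10-/- and 2278 to 12332 CPM in DSS Crypt-1 cells, against 1501 CPM in uninjured ones. Days 6, 7, 9 and 11 were above the Il10-/- library. Of the members that passed the limit 10 of 14 were at least 4-fold higher in Il10-/- mice and 6 of 12 in DSS mice. In the Crypt-1 sums of days 6, 7, 9 and 11, neutrophil markers were at 1194, 5347, 8761 and 11486 CPM, against 453 in Il10-/-. In Crypt-2 cells the list summed to 10835 CPM in Il10-/- and 4282 to 19269 CPM in DSS mice, against 2328 CPM in uninjured mice. In non-epithelial cells the sums were 19818, 6006 to 108740 and 582 CPM, in the same order. Neutrophil markers summed to 20504, 5523 to 110653 and 6.23 CPM there, close to the antimicrobial sums in Il10-/- and DSS mice. The part of other cells' transcripts in the Crypt-1 values was not tested. Wfdc18, a secreted whey acidic protein family member, had 1488 CPM in Il10-/- and 214 to 719 CPM in DSS Crypt-1 cells, against 9.59 CPM in uninjured ones. No DSS value came near the uninjured one, and the Il10-/- ratio was 155 (42.8 to 1282). Reg3g, a lectin that kills Gram-positive bacteria, had 1484 CPM in Il10-/- Crypt-1 cells, at least 103-fold higher than the uninjured library, where it had 0 counts (floor of 3 counts). Reg3b was at least 39.6-fold higher in Il10-/- cells, and 50.5% of its UMIs came from 1 cell. With cells of at least 1000 UMIs and at most 30% mitochondrial counts that bound was 15.4.

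In DSS mice Reg3b followed the batch label, with 2846, 444, 546, 672, 495 and 227 CPM on days 6, 9, 12, 16, 19 and 23 and 0, 0 and 0.83 CPM on the batch C days 7, 11 and 18. In Crypt-2 cells the batch C days had 0.08 to 7.13 CPM and the other DSS days 418 to 7097 CPM. No batch C value overlapped the others in either type.

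Of 23 genes of the fetal-like repair state 20 were in the deposited counts. They summed to 2673 CPM in Il10-/- and 1033 to 3365 CPM in DSS Crypt-1 cells, against 614 CPM in uninjured ones. Of the 12 that passed the limit, 7 were at least 4-fold higher in Il10-/- mice and 6 in DSS mice. Ly6a had 1167 CPM in Il10-/- Crypt-1 cells and 727, 1630, 1396, 491, 1339, 1388, 219, 1521 and 730 CPM over days 6 to 23, against 57.6 CPM in uninjured ones. Days 11 and 18 were the lowest DSS values and still above the uninjured library. The ratio was 20.3 in Il10-/- (11.5 to 39.5) and 23.3 for the DSS median. The growth factor amphiregulin (Areg) had ratios of 4.02 in Il10-/- and 6.20 in DSS mice, the urokinase receptor Plaur 6.82 and 6.62, and annexin A1 (Anxa1) 3.47 and 5.81. In Crypt-2 cells the whole list summed to 5229 CPM in Il10-/- and 2690 to 7675 CPM in DSS mice, against 1444 CPM in uninjured mice.

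The genes lower than in the uninjured library included secretory products. Mptx1, a mucosal pentraxin, had 18.2 CPM in Il10-/- Crypt-1 cells and 0, 1.39, 0, 1.25, 0, 20.4, 162, 1.37 and 90.4 CPM on the DSS days, against 2245 CPM in uninjured ones. Reg4 had 25.5 CPM in Il10-/- cells and 31.4, 0, 0, 56.1, 0, 200, 272, 5.48 and 51.3 CPM on the DSS days, against 974 CPM in uninjured ones. For both genes the uninjured library was above all 10 others. The Il10-/- ratios were 0.0081 (0.00386 to 0.0150) and 0.026 (0.0140 to 0.0449).

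Spink4, a goblet cell protease inhibitor, had 369 CPM in Il10-/- and 25.7 to 1256 CPM in DSS Crypt-1 cells, against 3727 CPM in uninjured ones, and Muc2 had 56.4 and 9.55 to 250 CPM, against 580 CPM. Hes1, the Notch effector, was at a ratio of 0.333 in Il10-/- (0.258 to 0.431). The 20 goblet and secretory genes summed to 3221 CPM in Il10-/- and 1856 to 5810 CPM in DSS Crypt-1 cells, against 9647 CPM in uninjured ones. Of the 10 that passed the limit, 4 were at least 4-fold lower in Il10-/- mice and 5 in DSS mice.

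The uninjured secretory transcripts came from few cells. Of 468 Mptx1 UMIs, 51.5% were in 1 cell and 85.9% in 3, and of 203 Reg4 UMIs 43.8% were in 1 and 82.8% in 3. Reg4 was found in 7 of the 16 cells, all 7 with Mptx1, Muc2 and Spink4 as well and 6 of them with Mki67. The low ratios of Cyp2c55 and Aqp8 rested on 1 uninjured cell each, with 84.3% and 86.2% of the counts. With cells of at least 1000 UMIs and at most 30% mitochondrial counts, the Il10-/- ratio of Aqp8 was 0.319 and that of Cyp2c55 0.0638, against 0.039 and 0.0074 with all cells. Their DSS medians were then 0.379 and 0.255, no longer past 4-fold.

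The other genes of the Il10-/- list were Plet1 (45.9, from 121 against 1 count), Krt36 (23.5), Lrg1 (at least 20.3), Tnip3 (17.8) and Xist (at least 17.3) on the high side and Clps (0.017), Ramp1 (0.029), Sval1 (0.050) and Hepacam2 (0.058) on the low side. For the DSS median Wfdc18 (44.7), Ly6g (22.7), Ccdc71l (16.8), Nme2 (12.5), Plet1 (11.0), Tnip3 (10.1), Bud23 (8.85) and Xpnpep1 (8.77) were highest, all 8 of them against 1 or 2 uninjured counts. With the stricter cells Ly6g was at 5.52 and Ccdc71l at 4.29, and the Il10-/- ratio of Tnip3 at 29.3. Mptx1 (at most 0.003), Sval1 (0.022), Reg4 (0.032), Cyp2c55 (0.034), Pcdh17 (0.041), Clps (at most 0.046), Ramp1 (0.046) and Aqp8 (at most 0.053) were lowest, where a bound marks a median set by libraries with 0 counts taken at the floor of 3, each below the uninjured value in 9 of 9 DSS libraries.

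For proliferation genes no ratio to the uninjured library passed 4-fold among the members compared, 0 of 24 G2 and mitosis genes in Il10-/- mice and 0 of 29 in DSS mice, and 0 of 18 and 0 of 23 S phase genes. These are ratios of single libraries with no test. Mki67 was at a ratio of 0.699 in Il10-/- (0.481 to 1.03) and 0.631 for the DSS median. For Mki67, 3 of 9 DSS libraries were above the uninjured one, the batch C days 7, 11 and 18. Top2a was at 1.13 (0.761 to 1.70) and 1.25.

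**Figure D5:**
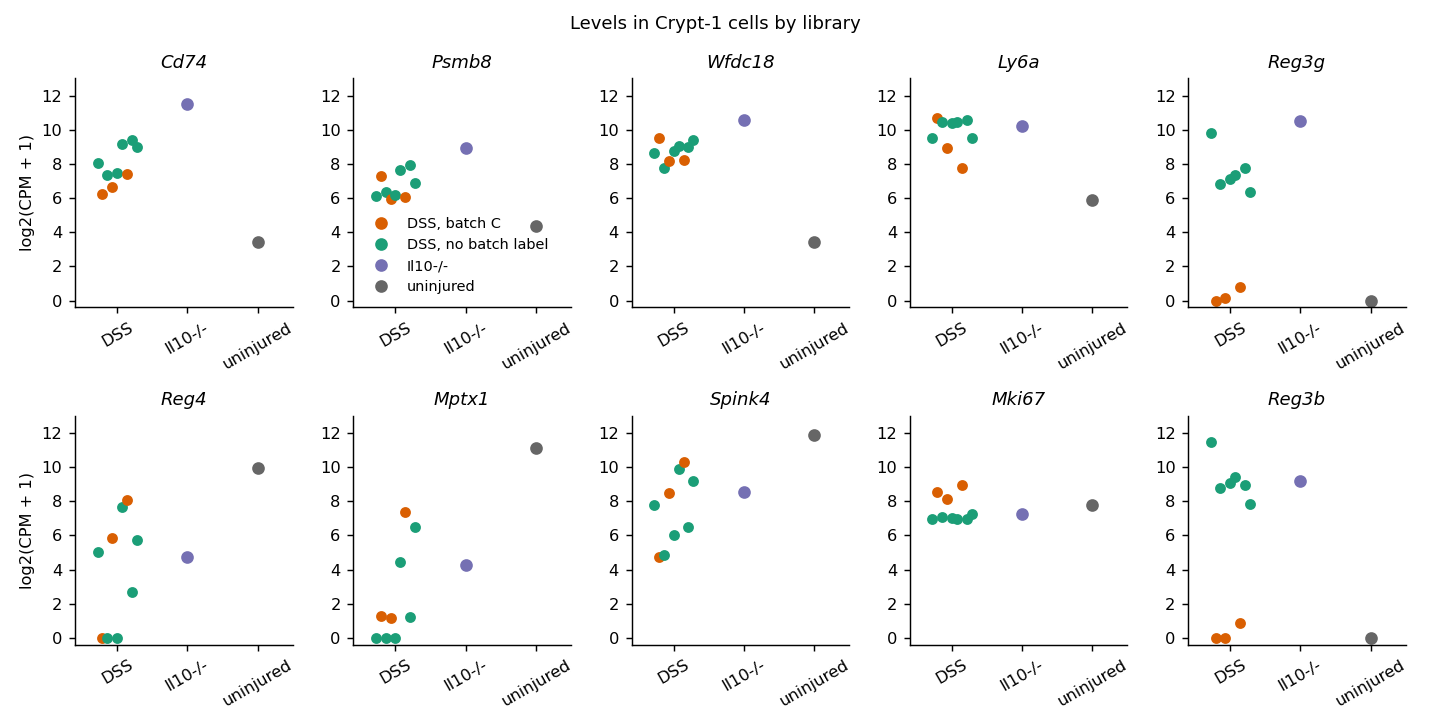
Level of 10 genes in the Crypt-1 sum of each library as log2(CPM + 1), with DSS libraries, the Il10-/- library and the uninjured library in 3 columns. Cd74 had 2959 CPM in Il10-/- mice and 9.59 CPM in uninjured mice, Mptx1 18.2 and 2245 CPM, and Mki67 151 and 216 CPM.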

How the data were processed

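Counts of UMIs per gene and cell were made by the authors with Cell Ranger 3.0.0 on mm10, per the submitters' processing notes, and deposited as 1 matrix of 14 libraries with a cell table. The 3 libraries that match no sample here (12621 cells) were not used. Cell types are the authors' annotation, 28 types. Rows that name no gene (597, 0.557% of Crypt-1 counts) were left out. The sources used here do not give how doublets were treated. No caller was run, and 61 Crypt-1 cells hold over 100000 UMIs. Counts were summed per library and type. Day slopes were fitted in R 4.3.3 with edgeR 4.0.16 (TMM, filterByExpr, robust quasi-likelihood test, Benjamini-Hochberg over all genes tested, adjusted p under 0.05), in libraries with at least 20 Crypt-1 cells, with DESeq2 1.42.0 as an alternative. Fits were tested on simulated data. The sums of Crypt-1 and Crypt-2 from 1 library are from the same pool, so the library was a block. Whether mice or pools were separate between days is given only as 1 pool per library, so the tests measure spread around a straight line over days. Ratios have exact conditional binomial 95% intervals, which cover counting error only, as do the floors of 3 counts. Thinning drew 1000 or 5000 UMIs per cell and left out shallower cells. Gene positions are GENCODE vM21 on mm10.

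The Crypt-1 cells and all gene lists were chosen with earlier results of these data known. Named genes were the 12 highest and 12 lowest ratios to Crypt-2, the 8 largest called slopes each way and up to 5 slope differences each way among genes at least as high as in non-epithelial cells, the 8 highest and lowest ratios to uninjured mice, and list members with the highest level or largest change. Unnamed predicted, mitochondrial and haemoglobin genes were counted and not named. Some genes that the rule names are not reported here. Alternatives were another scaling, other filters on genes and cells, other terms and libraries left out.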

Additional observations from a re-analysis of the deposited data

Results flagged for a closer look

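For 7 genes the day slope of Crypt-1 cells differed from that of Crypt-2 cells by a test of the difference itself, the interaction of type and day in edgeR's quasi-likelihood fit with the library as a block (log2 per 10 days, SE, Benjamini-Hochberg adjusted p). Clca3b differed by 1.38 ± 0.16 (adjusted p = 0.00093), F3 by 1.30 ± 0.21 (adjusted p = 0.0136), Sult1a1 by 1.35 ± 0.22 (adjusted p = 0.0136) and Ccnd2 by -1.06 ± 0.16 (adjusted p = 0.0105). The other 3 lay below their level in non-epithelial cells. Rgcc, a regulator of the cell cycle, differed by 2.27 ± 0.30 (adjusted p = 0.00221), with slopes of 1.61 in Crypt-1 and -0.63 in Crypt-2 cells. Ifitm2, an interferon-induced membrane protein, differed by 1.37 ± 0.18 (adjusted p = 0.00221), with slopes of 0.72 and -0.61. Clca1, a goblet cell secretory protein, differed by 4.18 ± 0.65 (adjusted p = 0.0354), with 2.78, 0, 5.72, 2.44, 2.04, 41.9, 4.11 and 7.33 CPM in Crypt-1 cells on days 7 to 23, against 37.3, 1.22, 118, 3.13, 7.10, 71.5, 4.65 and 16.8 CPM in Crypt-2 cells.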

How the results depend on the processing

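The 116 genes with a called day slope became 245 with DESeq2, 558 with no filter on low counts, 2 with no batch term, 34 with day 6 included and 217 without days 11 and 18, the last 2 settings chosen after seeing the data. Leaving out 1 library each gave 32 to 281. The 7 slope differences became 18 with DESeq2, 143 with no filter, 2 in libraries with no batch label and 4 with day 6 included. Leaving out 1 library each gave 4 to 32, and without the replicate block, which pairs the 2 sums of a library, 1 was called. The rank correlation of share and day ran from -0.119 to 0.333 and Pearson's r from -0.267 to 0.217 without 1 library. Both changed sign, rho without day 6 or day 7 and r without day 9, 11 or 23, and r was 0.219 with shares of all cells and 0.118 with shares of Crypt-1 plus Crypt-2 cells, while none had p under 0.05. Genes 4-fold lower than Crypt-2 numbered 55 when cells were thinned to 1000 UMIs, against 155. At 50 counts in place of 20, Il10-/- ratios past 4-fold numbered 60 higher and 11 lower, and DSS ratios 55 and 11. Of the other settings of these counts and correlations, 55 stayed within 1.5 times or on the same side, and no slope or slope difference named changed sign in the settings run. The causes were not tested. Depth limits most the day 6 and uninjured sums, and genes at a few counts there.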

Other observations

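Nme2, a nucleoside diphosphate kinase, split by batch label in Crypt-1 cells, with 963, 1116 and 1007 CPM on the batch C days 7, 11 and 18 and 42.8 to 60.9 CPM on the other DSS days, 32.7 CPM in Il10-/- and 4.80 CPM in uninjured mice. In Crypt-2 cells it had 520, 771 and 550 CPM on the batch C days.

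Xist, the RNA of the silenced X chromosome, had 249 CPM in Il10-/- Crypt-1 cells and at most 1.22 CPM in the 10 other libraries. The Y-linked genes Ddx3y and Eif2s3y had 50.9 and 43.6 CPM in the same Il10-/- cells, against 72.0 and 48.0 CPM in uninjured ones, so the Il10-/- pool held transcripts of both kinds.

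Clu, clusterin, a gene of damage-responsive crypt cells, was at 0 to 16.3 CPM in Crypt-1 cells up to day 18, at 60.3 CPM on day 19 and 90.4 CPM on day 23, at 56.4 CPM in Il10-/- and at 4.80 CPM in uninjured mice.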
